A study of Mus musculus with 60 samples.

Results

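The genes described here are 10 transcription factor and immediate early genes, namely Fos, Fosl1, Fosl2, Jun, Junb, Jund, Atf3, Egr1, Klf6 and Ier2. They were taken by gene symbol from the 3 gene count tables, which list 23440 genes for the culture experiment, 23068 for the passage experiment and 28773 for the single organoids. Each symbol matched 1 Ensembl identifier, and all 10 genes passed the filter on low counts in each table, beside 12699, 13738 and 13927 genes tested.

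The material was organoids grown from the bile ducts of C57BL/6N mice aged 3-4 months, with no transgene or treatment in any group. In the culture experiment, 3 cultures were kept in Matrigel domes and 3 as shaken suspensions in dilute Matrigel. The paper names 3 pools of material from several animals for it, and describes organoids either kept in domes or moved to suspension. Domes and suspensions thus shared their origin. The sample titles give a number but not the pool, and the main fit took no pairs. In the passage experiment, bulk cultures of Sets 1, 3 and 4, each from 1 mouse, were sequenced at passage 4 and at passage 11 as 2 technical replicates, which were summed. In the third experiment, single organoids were picked from suspension cultures of Set 1 at passage 11, Sets 2 and 3 at passage 3, and Set 4 at passage 4. Of 42 organoids, the 35 retained after quality control were used (8, 10, 5 and 12 in Sets 1 to 4). Each set is 1 mouse, so that animal and passage cannot be told apart between sets, and P-values between sets measure only the spread between organoids of these 4 mice.

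Libraries held 1776490 to 14761853 counts for domes, 3837619 to 12089655 for suspension, 1486347 to 5532630 for the summed passage cultures and 1059002 to 11175868 for the single organoids. The cholangiocyte markers Krt19 and Epcam were abundant, and the summed list of 6 such markers ranged from 1016 to 9589 CPM over all groups. The endothelial list reached at most 3.83 CPM and the mesenchymal list 0.690 CPM in any library. The macrophage list was carried mainly by Cd14. In the culture experiment, C1qa and Adgre1 were at or below 0.236 CPM. Cd68, however, ranged from 6.01 to 89.8 CPM in domes, and Csf1r reached 1.65 CPM there. All levels below are CPM, that is, counts scaled to library size after TMM normalisation. Fold-changes are on the log2 scale with their standard error (SE), and adj. P-values, with a threshold of 0.05, are from the quasi-likelihood test of edgeR after Benjamini-Hochberg adjustment across the genes tested. In bulk cultures, fewer cells of a type and less RNA per cell cannot be told apart.

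AP-1 is a dimeric transcription factor built from a Jun family protein and a Fos, Jun or ATF family partner, and it binds short palindromic elements and, with ATF partners, related cAMP response elements. Many of its genes are immediate early genes, which are transcribed within minutes of growth factors, stress or tissue dissociation without the need for new protein, and their short-lived mRNAs decay soon after. In the liver, c-Jun and its partners are known for their part in regeneration and in the response to injury.

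The bases upstream of the starts of Fos, Jun, Klf6 and Atf3 are shown. These are the members whose windows held a match to an element named below. The sequences are RefSeq promoter windows of GRCm38.p6, which were searched for 7 of the 10 members and not for Fosl1, Egr1 and Ier2. Each line ends just before the start that RefSeq gives, except that of Klf6, which stops short of it at an annotated exon. Each line runs 5′ to 3′ on the strand of the gene. Capitals mark every match on either strand to the AP-1 letters TGANTCA, to the related elements with the letters TGACNTCA or with the shorter core TGACGT, or to the CArG box bound by SRF.
Fos, chr12:85473640-85473889, forward strand: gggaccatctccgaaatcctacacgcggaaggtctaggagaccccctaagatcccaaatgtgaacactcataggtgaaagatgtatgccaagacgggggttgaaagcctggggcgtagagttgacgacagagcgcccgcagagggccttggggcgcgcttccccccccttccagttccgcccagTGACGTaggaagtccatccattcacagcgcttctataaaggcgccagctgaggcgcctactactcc
Jun, chr4:95052223-95052472, reverse strand: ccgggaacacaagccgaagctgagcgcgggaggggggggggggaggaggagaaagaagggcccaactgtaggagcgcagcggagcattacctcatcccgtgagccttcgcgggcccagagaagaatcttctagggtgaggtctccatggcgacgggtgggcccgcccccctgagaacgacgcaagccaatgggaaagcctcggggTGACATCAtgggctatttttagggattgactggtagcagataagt
Klf6, chr13:5861239-5861481, forward strand: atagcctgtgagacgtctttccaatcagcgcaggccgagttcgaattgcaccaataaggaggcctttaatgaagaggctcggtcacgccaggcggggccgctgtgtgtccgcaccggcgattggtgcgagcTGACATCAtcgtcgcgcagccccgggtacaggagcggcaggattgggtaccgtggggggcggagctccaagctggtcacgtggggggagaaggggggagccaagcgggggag
Atf3, chr1:191183334-191183583, reverse strand: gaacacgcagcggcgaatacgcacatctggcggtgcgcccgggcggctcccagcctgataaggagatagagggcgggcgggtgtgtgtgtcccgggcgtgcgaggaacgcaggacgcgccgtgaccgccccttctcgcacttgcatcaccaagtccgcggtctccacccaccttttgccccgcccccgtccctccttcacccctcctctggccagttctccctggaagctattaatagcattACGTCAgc

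Jun and Klf6 carry the same 8 letters, TGACATCA, which start 45 bases before the Jun start and 119 bases before the Klf6 start. Fos carries TGACGT from 66 bases before its start, and Atf3 carries the reverse complement ACGTCA from 8 bases before its start. The Klf6 window has 243 bases, since those inside an annotated exon were left out, and the others 250. Positions are counted from the RefSeq start, also for Klf6. The letters TGACNTCA occur in 7.49% of the 32851 mouse RefSeq promoter windows searched, and in 2 of the 7 member windows. The core TGACGT occurs in 6.47% of all windows and in 2 of the 7. The letters TGANTCA occur in 6.75% of all windows and the CArG box in 1.47%, and each in 0 of the 7. Fosl1, Egr1 and Ier2 were not searched, nor were bases further than 250 upstream, so that elements there would be missed. A match describes letters, not a bound site. The Fos gene spans 85473890-85477273 on chromosome 12 and has 4 exons. Jun spans 95049034-95052222 on chromosome 4 as 1 exon, overlapped by the antisense gene Junos. Klf6 lies at 5861482-5870394 on chromosome 13, and Atf3 at 191170296-191218039 on chromosome 1, both with 4 exons. The Atf3 window lies inside the annotated gene, upstream of an internal start. Junb overlaps Prdx2, Jund overlaps Gm11175 and Fosl1 overlaps Ccdc85b on the opposite strand, and the use of strand in counting is not stated in these sources, so that reads over these stretches cannot be told apart.

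The first comparison asked how culture in domes differs from shaken suspension. Atf3, Jund and Junb were higher in domes, Fosl1 was lower, and the other 6 members did not pass the test. These 4 calls of 10 stand beside 29.7% of all 12699 genes tested, 15% higher and 14.7% lower in domes. The median log2 fold-change, dome minus suspension, was 0.06 over the members and -0.04 over all genes tested.

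Among the Fos family, Fosl1, which encodes the AP-1 subunit FRA-1, had 10.0, 10.2 and 8.79 CPM in the 3 domes and 24.0, 31.9 and 27.5 CPM in suspension. The groups did not overlap, and the domes lay close together at well below the suspension level. On the log2 scale, domes differed by -1.51 (SE 0.22, adj. P-value 0.00203).

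Fos itself, the prototype of the family, had 21.1, 42.3 and 40.1 CPM in domes and 41.4, 57.4 and 58.8 CPM in suspension. The ranges met at dome 2 and suspension 1. The difference of -0.66 (SE 0.28) did not pass the test (adj. P-value 0.103), whereas with the replicate number as a block it did (-0.67, adj. P-value 0.0307). Fosl2, which encodes FRA-2, had 57.8 ± 24.9 CPM in domes and 62.0 ± 16.1 CPM in suspension (SD, n = 3), with a log2 difference of -0.13 (SE 0.31, adj. P-value 0.778).

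In the Jun family, Jund, whose product is the most constant Jun protein of resting cells, had 381, 617 and 602 CPM in domes and 240, 245 and 227 CPM in suspension. All 3 domes lay above all suspension cultures, which hardly differed from each other. The log2 fold-change reached 1.17 (SE 0.23, adj. P-value 0.00578).

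Junb, a Jun protein that can restrain c-Jun, had 251, 542 and 421 CPM in domes and 209, 265 and 190 CPM in suspension. Dome 1 lay below suspension 2, so that the groups overlapped. Its log2 fold-change was 0.87 (SE 0.28, adj. P-value 0.0428), and the call was lost when any 1 culture other than dome 1 was left out (adj. P-values 0.0706 to 0.163). It was lost as well without TMM scaling, at 0.46 (adj. P-value 0.190), a scaling that moved the median of all genes from -0.04 to -0.42. Jun had 26.5, 65.0 and 34.1 CPM in domes against 34.0, 41.1 and 33.4 CPM in suspension, and dome 2 alone stood above the rest. The log2 difference was 0.16 (SE 0.31, adj. P-value 0.722).

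Atf3, a stress-induced member of the ATF/CREB family that dimerises with Jun proteins, had 6.16, 22.6 and 9.34 CPM in domes and 2.52, 3.07 and 1.99 CPM in suspension. These levels rest on 17 to 81 counts in domes and 12 to 29 in suspension. Each dome lay above each suspension culture, with dome 2 the highest. Domes were higher by 2.20 on the log2 scale (SE 0.50, adj. P-value 0.00998), the largest difference of the 10 members, without dome 2 it was 1.57 (adj. P-value 0.0126), and without suspension 3 it was 2.02 (adj. P-value 0.0524).

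Klf6, a zinc finger factor of early responses, had 35.8, 75.9 and 39.0 CPM in domes and 35.7, 35.2 and 27.0 CPM in suspension. The groups did not overlap but met at dome 1 and suspension 1, and the log2 difference of 0.59 (SE 0.29) did not pass the test (adj. P-value 0.151). Groups without overlap were found for 47.4% of all genes tested. Egr1, a zinc finger factor induced through the ERK pathway, had 9.89, 11.7 and 20.3 CPM in domes and 7.57, 18.4 and 18.0 CPM in suspension. Both groups spread over the same range, with a log2 difference of -0.14 (SE 0.39, adj. P-value 0.806). Ier2, an immediate early gene of nuclear localisation, had 183 ± 23.9 CPM in domes and 188 ± 36.5 CPM in suspension, with a log2 difference of -0.03 (SE 0.21, adj. P-value 0.919).

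**Figure D1:**
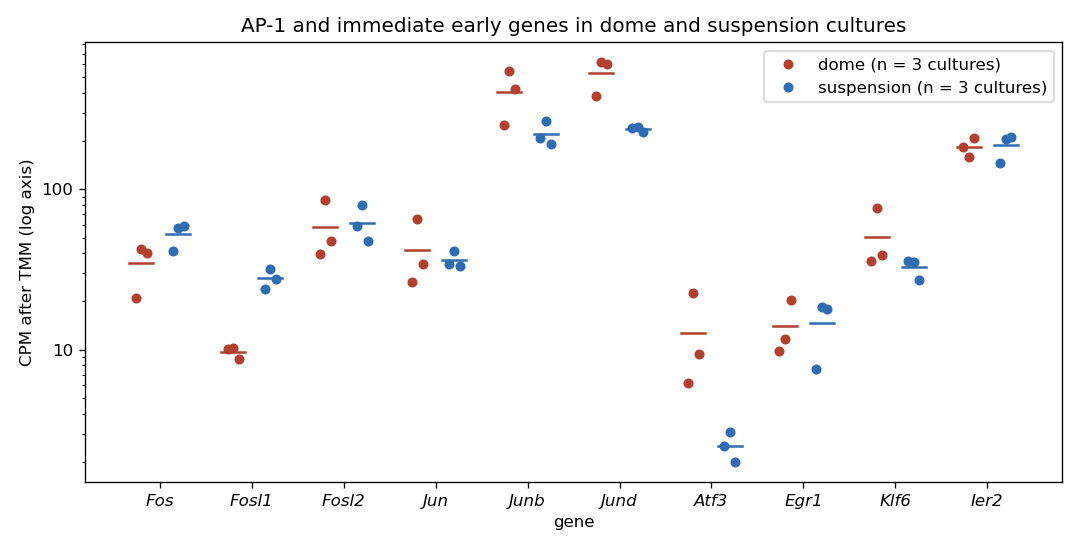
CPM on a log axis of the 10 genes in 3 dome (red) and 3 suspension (blue) cultures, where each point is 1 culture and each bar a mean. Atf3 and Jund lie higher in all 3 domes and Fosl1 lower, whereas Ier2 and Egr1 overlap.

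Dome 2 held the highest level of Fos, Fosl1, Fosl2, Jun, Junb, Jund, Atf3 and Klf6 among the domes. Dome libraries differed in depth, with 14761853 counts in dome 1 against 1885591 and 1776490 in the other two. After random removal of counts down to the smallest library, Jund alone of the 4 called members passed the test (adj. P-value 0.0223), while Atf3 was at 1.81, Fosl1 at -1.16 and Junb at 0.89 on the log2 scale (adj. P-values 0.0608, 0.0749 and 0.0827). The share of all genes called fell to 10.5% in the same thinning. Mitochondrial genes held 1.64 to 2.02% of the counts in domes and 3.72 to 4.02% in suspension, and the macrophage list summed to 207 to 280 CPM in domes and 524 to 648 CPM in suspension, of which Cd14 was the main part. The hepatocyte list, mainly Ttr, summed to 305 to 840 CPM in domes and 257 to 638 CPM in suspension. Their part in these results was not tested.

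Genes related to the members were taken from lists, which were chosen with earlier results of these data known. Beside the list counts for the cultures stand 15% of all genes higher and 14.7% lower in domes. Fosb, a further Fos family gene, had 1, 1 and 0 counts in domes and 14, 23 and 74 counts in suspension, or up to 0.730 CPM against 2.94 to 5.43 CPM (adj. P-value 0.00201). Of 7 other AP-1 and Maf family genes tested, 1 was higher and 2 were lower in domes. Maff, a small Maf protein, was higher by 1.19 (SE 0.30, adj. P-value 0.0158), and Atf2, a partner of c-Jun, differed by -1.11 (SE 0.28, adj. P-value 0.0153).

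Of 24 other immediate early genes tested, 5 were higher and 4 lower. Ppp1r15a, a stress-induced phosphatase subunit, rose by 2.07 (SE 0.43, adj. P-value 0.00753) and Ier3 by 1.82 (SE 0.37, adj. P-value 0.00647). Sgk1, a kinase gene induced by serum and glucocorticoids, fell by 2.94 on the log2 scale (SE 0.48, adj. P-value 0.00296). Of 11 genes known as AP-1 targets, 2 were higher and 3 lower, among them the chemokine gene Ccl2 at -4.49 (SE 0.67, adj. P-value 0.00213) and the haem oxygenase gene Hmox1 at 3.58 (SE 0.44, adj. P-value 0.00117). Of 16 kinases and factors upstream of these genes, 4 were higher and 2 lower. Elk1, an ERK-responsive partner of SRF, was at 1.42 (SE 0.38, adj. P-value 0.0202) and its relative Elk3 at -1.28 (SE 0.22, adj. P-value 0.00370), while the kinase gene Rps6ka1 was at 1.29 (SE 0.27, adj. P-value 0.00750).

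The second comparison asked what changed between passage 4 and passage 11 in bulk cultures of the same sets. Atf3, Klf6, Jun and Junb were lower at passage 11, and 0 members were higher. These 4 calls of 10 stand beside 20.3% of the 13738 genes tested, 10.1% in each direction. The median log2 fold-change, passage 11 minus passage 4, was -0.47 over the members and -0.05 over all genes tested. All 4 called members had groups without overlap, as did 39.5% of all genes tested.

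Atf3 had 81.0, 42.7 and 27.2 CPM at passage 4 in Sets 1, 3 and 4, and 15.5, 7.35 and 5.72 CPM at passage 11. Each set fell, and the order of the sets was the same at both passages. The log2 fold-change was -2.30 (SE 0.43, adj. P-value 0.00611), which lay at the 1.52 percentile of all genes tested. The lowest value, Set 4 at passage 11, rests on 9 counts in the smallest library.

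Klf6 followed the same order, with 109, 63.6 and 53.1 CPM at passage 4 and 36.7, 32.2 and 16.5 CPM at passage 11. Its log2 fold-change was -1.33 (SE 0.30, adj. P-value 0.0136). Every set was lower at the later passage.

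Jun, which encodes the c-Jun subunit, had 47.6, 42.9 and 41.1 CPM at passage 4 and 17.0, 22.4 and 27.9 CPM at passage 11. The sets lay close together at passage 4, and each was lower at passage 11. The log2 change was -1.01 (SE 0.19, adj. P-value 0.00601).

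Junb had 445, 381 and 368 CPM at passage 4 and 311, 268 and 263 CPM at passage 11. Its change of -0.50 (SE 0.14, adj. P-value 0.0305) was the smallest of the 4. The call was lost in 5 of 6 fits that left out 1 culture, all but that without Set 1 at passage 11, with adj. P-values of 0.0530 to 0.112.

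Jund had 238 ± 15.3 CPM at passage 4 and 200 ± 24.1 CPM at passage 11 (SD, n = 3), and its log2 difference of -0.26 (SE 0.14) did not pass the test (adj. P-value 0.225).

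In the Fos family 0 of 3 members passed. Fos had 30.8, 37.9 and 51.1 CPM at passage 4 and 36.1, 26.0 and 25.4 CPM at passage 11. It was higher at passage 11 in Set 1 and lower in Sets 3 and 4, with a log2 difference of -0.44 (SE 0.22, adj. P-value 0.175). Fosl1 had 41.7, 21.8 and 18.8 CPM at passage 4 and 29.1, 17.1 and 3.81 CPM at passage 11, lower in each set, but the sets differed more than the passages. Its log2 difference was -0.57 (SE 0.46, adj. P-value 0.415), and the lowest value rests on 6 counts. Fosl2 had 32.7 ± 5.41 CPM and 29.2 ± 8.69 CPM at passages 4 and 11, a difference of -0.19 (SE 0.23, adj. P-value 0.594).

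Egr1 had 7.77, 7.09 and 6.33 CPM at passage 4 and 8.74, 7.15 and 12.7 CPM at passage 11. Its log2 difference of 0.36 (SE 0.27) did not pass the test (adj. P-value 0.378). Ier2 had 157, 163 and 164 CPM at passage 4 and 187, 163 and 189 CPM at passage 11, with a log2 difference of 0.15 (SE 0.13, adj. P-value 0.427).

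**Figure D2:**
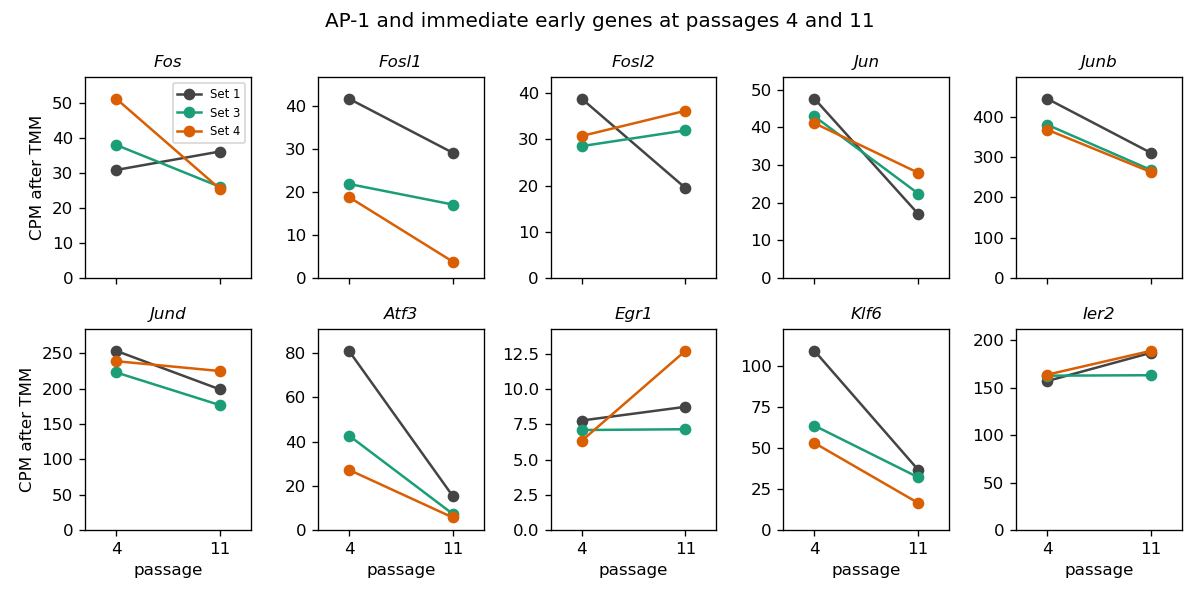
CPM of the 10 genes at passage 4 and passage 11, where each line joins the summed technical replicates of 1 set at both passages and each axis starts at 0. Atf3, Klf6, Jun and Junb are lower at passage 11 in all 3 sets, while the lines of Fos and Fosl2 do not all run one way.

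Fitting the set as a block changed none of the 10 calls, and gave Atf3 -2.42 (adj. P-value 3.62e-05) and Klf6 -1.38 (adj. P-value 0.000602). After the same thinning of the passage libraries, Atf3 passed (-2.35, adj. P-value 0.00667), and Jun, Junb and Klf6 did not, at -0.99, -0.57 and -1.04 (adj. P-values 0.103, 0.0618 and 0.110), with 6.12% of all genes called. Mitochondrial genes held 1.99 to 2.63% of counts at passage 4 and 0.895 to 1.71% at passage 11, and the macrophage list, mainly Cd14, summed to 875 to 1158 CPM and 380 to 623 CPM. The hepatocyte list, mainly Ttr, summed to 308 to 733 CPM at passage 4 and 791 to 1146 CPM at passage 11, without overlap. Their part in these results was not tested.

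Calls among the other immediate early genes ran in 1 direction. Of 23 other immediate early genes tested, 0 were higher and 9 lower at passage 11, with a median log2 fold-change of -0.81. Beside this list and those below stand 10.1% of all genes called in each direction, and the lists were chosen with earlier results of these data known. Dusp1, a phosphatase that ends MAP kinase signals, had 80.2, 62.3 and 42.9 CPM at passage 4 in Sets 1, 3 and 4 and 19.9, 14.9 and 15.9 CPM at passage 11, a change of -1.85 (SE 0.24, adj. P-value 0.00122). Ppp1r15a went from 44.5, 39.9 and 30.4 CPM to 11.0, 8.14 and 8.89 CPM, a change of -2.02 (SE 0.21, adj. P-value 0.000517). In both, every set was lower at passage 11. The polo-like kinase gene Plk2 changed by -1.56 (SE 0.41, adj. P-value 0.0240).

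Of 7 other AP-1 and Maf family genes, 2 were lower and 0 higher. They were Mafg, a small Maf protein, at -1.64 (SE 0.24, adj. P-value 0.00195) and Jdp2, a repressor that dimerises with Jun proteins, at -1.63 (SE 0.51, adj. P-value 0.0450). Levels of Jdp2 were low, with means of 3.61 CPM at passage 4 and 0.920 CPM at passage 11, so that its change rests on few counts. Of 12 AP-1 target genes, 4 were lower and 0 higher. Vegfa, which encodes the vascular growth factor, had 29.0, 24.3 and 21.1 CPM at passage 4 and 5.38, 4.57 and 3.81 CPM at passage 11, a change of -2.38 (SE 0.23, adj. P-value 0.000375). The cytokine gene Lif changed by -1.49 (SE 0.32, adj. P-value 0.0113) and the hyaluronan receptor gene Cd44 by -0.92 (SE 0.15, adj. P-value 0.00336). Of 16 upstream genes, the p38 kinase gene Mapk14 was higher (0.75, SE 0.21, adj. P-value 0.0318) and the JNK gene Mapk8 lower (-1.02, SE 0.31, adj. P-value 0.0413), and 14 did not pass.

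The third comparison asked whether the sets differ at the level of single organoids. Tested over the 4 sets together, 2 of 10 members differed, Atf3 (adj. P-value 0.0144) and Jund (adj. P-value 0.0122), beside 34.6% of all 13927 genes tested. In the 6 comparisons of sets, adjusted together, 4 of 60 gene and comparison pairs passed, beside 11.9% over all genes. In each of these 4, the sets overlapped. By comparison, called members and the share of all genes called were 2 of 10 and 14.3% for Set 1 minus Set 2, 0 and 9.45% for Set 1 minus Set 3, 1 and 20% for Set 1 minus Set 4, 0 and 3.93% for Set 2 minus Set 3, 1 and 12.4% for Set 2 minus Set 4, and 0 and 11.5% for Set 3 minus Set 4.

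Atf3 ranged from 2.60 to 15.8 CPM in Set 1 (median 5.61), from 3.22 to 28.6 CPM in Set 2 (median 9.63), from 5.78 to 12.3 CPM in Set 3 (median 9.75) and from 1.56 to 8.56 CPM in Set 4 (median 6.30). Set 2 reached the highest levels and Set 4 the lowest. Set 1 minus Set 2 was -0.97 on the log2 scale (SE 0.31, adj. P-value 0.0360), and Set 2 exceeded Set 4 by 0.99 (SE 0.28, adj. P-value 0.0159). Set 1 minus Set 4 was 0.02 (SE 0.32, adj. P-value 0.975). The bulk comparison of passages 11 and 4 had given -2.30. Atf3 held 4 to 72 counts per organoid.

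Jund ranged from 317 to 757 CPM in Set 1 (median 498), from 187 to 503 CPM in Set 2 (median 323), from 339 to 632 CPM in Set 3 (median 410) and from 254 to 439 CPM in Set 4 (median 356). By median, Set 1 was the highest, above Set 2 by 0.66 (SE 0.18, adj. P-value 0.0118) and above Set 4 by 0.53 (SE 0.17, adj. P-value 0.0358). Within Set 1, however, organoids 1 to 4 had 608, 671, 675 and 757 CPM, and organoids 5 to 8 had 330, 388, 331 and 317 CPM. The median of 498 lay between these groups, and organoids 5 to 8 lay near the medians of Sets 2 and 4. Set 1 minus Set 3 was 0.18 (SE 0.22, adj. P-value 0.633). With all 42 organoids, neither Jund comparison passed (adj. P-values 0.175 and 0.229), and after thinning to the smallest library 0 of the 60 pairs passed, beside 3.09% over all genes.

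The other 8 members did not pass in any of the 6 comparisons of the main fit. In limma-voom, Fosl1 in Set 2 minus Set 4 and Klf6 in Set 3 minus Set 4 did, as did Junb in Set 3 minus Set 4 without TMM scaling. In the main fit, Klf6 came nearest, higher in Set 3 (120 to 185 CPM, median 133) than in Set 4 (35.8 to 132 CPM, median 92.1) by 0.81 (SE 0.30, adj. P-value 0.0639). Fosl1 had medians of 14.2, 21.1, 22.9 and 10.4 CPM in Sets 1 to 4, and Set 2 minus Set 4 was 0.76 (SE 0.28, adj. P-value 0.0709). Jun had medians of 222, 196, 196 and 157 CPM, with Set 2 minus Set 4 at 0.48 (SE 0.18, adj. P-value 0.0768). Fos had medians of 448, 331, 250 and 316 CPM, and Set 1 minus Set 3 was 0.52 (SE 0.27, adj. P-value 0.210). Called in 1 direction for Set 1, the late passage, against each of the other sets were 0 of the 10, beside 3.92% of all genes tested, and called lower in all 3 were 0 of the 10, beside 1.52%.

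**Figure D3:**
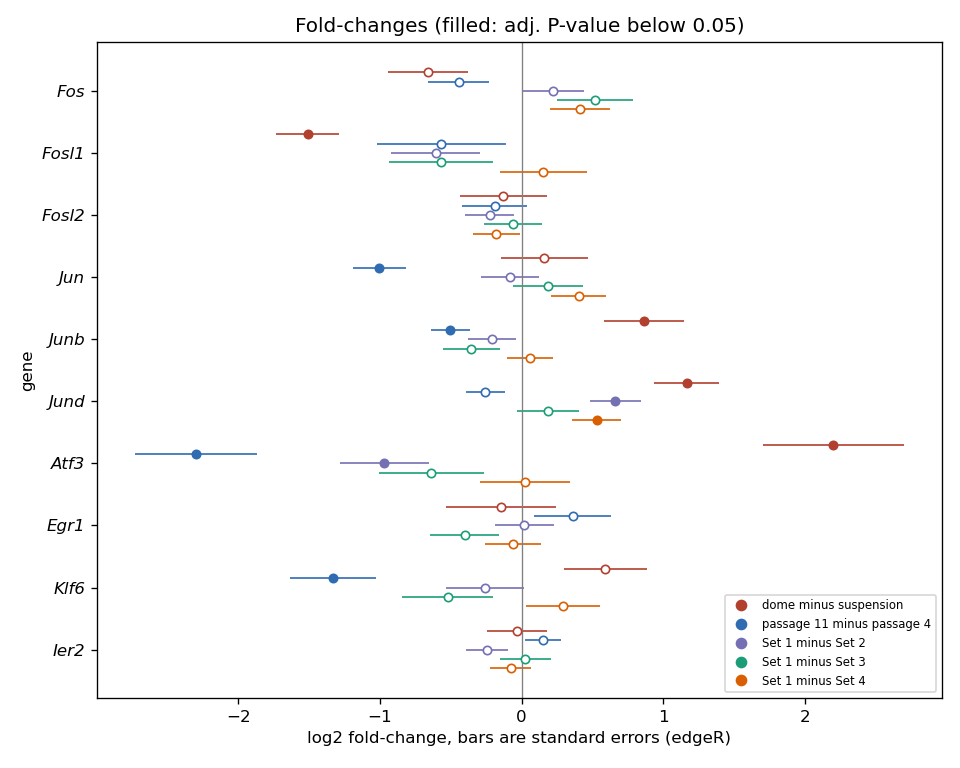
Log2 fold-changes with SE of the 10 genes in the dome and suspension comparison, the passage comparison and the 3 comparisons of Set 1 with the other sets, where filled points passed the adj. P-value threshold of 0.05. Atf3 lies at 2.20 for domes and at -2.30 for passage 11, and near 0 for Set 1 minus Set 4.

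Of the AP-1 targets, 1 of 11 was higher and 5 lower in Set 1 than in Set 2, 0 higher and 5 lower than in Set 3, and 2 higher and 2 lower than in Set 4. Over all genes tested, 14.3%, 9.45% and 20% were called in either direction in these comparisons. On the log2 scale, Ccl2 was at -1.95 against Set 2 (SE 0.32, adj. P-value 3.02e-05) and -2.07 against Set 3, without overlap of the sets in either. For other immediate early genes, 1 of 24 was higher and 4 lower than in Set 2, 0 and 5 than in Set 3, and 0 and 1 than in Set 4. Jdp2 was at -2.26 against Set 2 and at -1.97 against Set 3. Neither gene set Set 1 apart from Set 4, an early passage. Mean levels in Sets 1 and 4 were 2.51 and 2.49 CPM for Jdp2, and 8.24 and 10.1 CPM for Ccl2. Against Set 4, Jdp2 was likewise higher in Set 2 (2.29) and in Set 3 (2.00), and so was Ccl2 (1.65 and 1.77).

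Single organoids were then compared with each other. Over the 35 organoids of all 4 sets, Atf3 ranged from 1.56 to 28.6 CPM, an 18.4-fold span, Klf6 from 35.8 to 267 CPM (7.47-fold), and Fosl1 from 5.40 to 32.9 CPM (6.08-fold). The narrowest spans were those of Ier2, 70.3 to 185 CPM (2.63-fold), and Egr1, 20.5 to 59.0 CPM (2.88-fold). Fos ranged from 193 to 833 CPM and Jun from 103 to 474 CPM. Within single sets, the spans of Atf3 were 6.09-fold, 8.87-fold, 2.12-fold and 5.50-fold in Sets 1 to 4, and those of Klf6 2.12-fold, 7.19-fold, 1.53-fold and 3.70-fold.

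The biological coefficient of variation, the spread between organoids of a set beyond counting noise, was 0.429 for Fosl1, 0.410 for Atf3, 0.394 for Klf6, 0.323 for Fos, 0.299 for Jun and 0.291 for Egr1. These 6 lay above the trend of all genes at their abundance, which was 0.268 to 0.299, and the other 4 lay below it, with Ier2 the lowest at 0.216. In their ratio to the trend, Fosl1 stood at the 94.9 percentile of all genes, Klf6 at 94.4 and Atf3 at 91.8. Of those below the trend, Jund stood at 59.6, Junb at 50.8, Fosl2 at 41.1 and Ier2 at 29.6, so that Jund and Junb were not unusually steady. The median over all genes was 0.277. Within Set 2, the highest organoid of Atf3 had 28.6 CPM and the lowest 3.22 CPM, and that of Klf6 267 and 37.2 CPM.

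**Figure D4:**
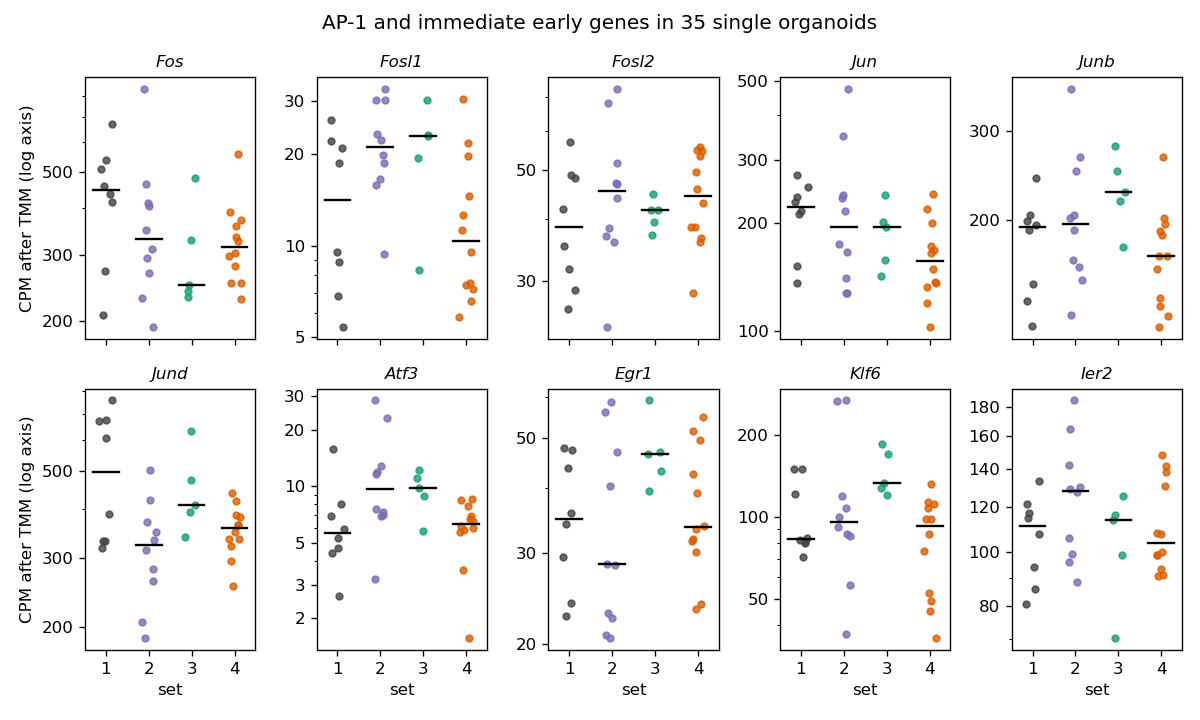
CPM on log axes of the 10 genes in 35 single organoids of Sets 1 to 4, where each point is 1 organoid and each bar the set median. All sets overlap for each gene, and the points of Atf3 and Klf6 spread most widely in Set 2.

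The 3 tables were normalised separately, so that levels between them can only be set side by side. Fos was at 21.1 to 58.8 CPM over the 12 bulk cultures and at 193 to 833 CPM in single organoids. Jun was at 17.0 to 65.0 CPM in bulk and at 103 to 474 CPM in single organoids, and Egr1 at 6.33 to 20.3 CPM and 20.5 to 59.0 CPM. For these 3 genes every single organoid lay above every bulk culture. Junb (190 to 542 CPM and 123 to 364 CPM), Ier2 (146 to 211 CPM and 70.3 to 185 CPM) and Fosl2 (19.5 to 86.1 CPM and 24.3 to 72.6 CPM) overlapped between the tables. Total RNA was taken from the bulk cultures, whereas single organoids were picked with a pipette and their mRNA was captured on beads, and these steps cannot be told apart from other differences between the experiments.

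Within sets of at least 6 organoids, the level of Fos was related to each other member, to total counts and to the mitochondrial share, which gave 33 relations adjusted together. Organoids of a set share a mouse and culture. Past the threshold were 2 of 33. Fos and Jun rose together in Set 2 (Pearson's r 0.935, permutation P-value 9e-05, adj. P-value 0.00297; Spearman's rho 0.879, permutation P-value 0.00151; n = 10), and r was 0.870 without the 2 organoids farthest from the median of Fos. Fos and Egr1 rose together in Set 4 (r 0.812, permutation P-value 0.00072, adj. P-value 0.0119, rho 0.860, permutation P-value 0.00068, n = 12), and r was 0.764 without the 2 farthest. After thinning, Fos and Egr1 in Set 4 no longer passed (r 0.503, permutation P-value 0.0868, adj. P-value 0.260), with r -0.0598 without the 2 farthest, while Fos and Jun in Set 2 did (r 0.887, permutation P-value 1e-04, adj. P-value 0.00300). In Set 1, r of Fos with Jun was 0.878 (exact P-value 0.0109, adj. P-value 0.0717, rho 0.690, exact P-value 0.0694, n = 8), and 0.440 without the 2 farthest. In Set 4 it was 0.538 (permutation P-value 0.0701, adj. P-value 0.217, rho 0.580, permutation P-value 0.0518, n = 12).

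To use all 35 organoids, log2 CPM was centred within each set and organoids were permuted within sets, an analysis added after the data were seen. Of 45 pairs of members, 27 had a positive r, and 13 positive and 1 negative pair passed an adj. P-value of 0.05 over 65 relations that also held total counts and the mitochondrial share. The share of such pairs among all genes was not determined, so that the count cannot be called particular to the members or common to all genes. For scale, the 95 percentile of r with Fos over 6484 abundant genes was 0.570. Fos and Jun had r 0.811 (permutation P-value 1e-05, the smallest that the permutations can give, adj. P-value 0.000325, rho 0.800, permutation P-value 1e-05), and 0.752 without the 2 farthest organoids. Junb and Ier2 had r 0.814 (permutation P-value 1e-05, adj. P-value 0.000325, rho 0.793, permutation P-value 1e-05), and 0.760 without the 2 farthest. Within Sets 1, 2 and 4, r of Junb and Ier2 was 0.510, 0.967 and 0.802.

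The other pairs past the threshold were mostly among Fos, Jun, Jund, Egr1, Atf3 and Klf6. Egr1 had r 0.591 with Fos, 0.553 with Jun, 0.482 with Jund, 0.613 with Atf3 and 0.626 with Klf6, all past the threshold (adj. P-values 0.00819, 0.0252, 0.0390, 0.00682 and 0.00682). Jund was past it with Fos (r 0.595, adj. P-value 0.0112), Jun (0.454, adj. P-value 0.0486) and Klf6 (0.462, adj. P-value 0.0390), and Atf3 with Jun (0.489, adj. P-value 0.0475) and Klf6 (0.496, adj. P-value 0.0390). Atf3 and Klf6 did not pass with Fos (r 0.324 and 0.372, adj. P-values 0.210 and 0.144). Jun with Klf6 and Jund with Atf3 did not pass either (r 0.342 and 0.198, adj. P-values 0.215 and 0.475). The remaining positive pair past the threshold was Fosl1 and Fosl2 (r 0.457, adj. P-value 0.0390). Jun and Junb, both partners of Fos proteins, ran against each other (r -0.545, permutation P-value 0.00268, adj. P-value 0.0249, rho -0.510, permutation P-value 0.00403), with -0.237, -0.655 and -0.633 within Sets 1, 2 and 4. This pair was at -0.456 without TMM scaling (adj. P-value 0.0571) and at -0.411 after thinning (adj. P-value 0.148), where r in Set 1 was 0.252. Of the 13 positive pairs, 5 passed after thinning, namely Fos with Jun, Jund and Egr1, Junb with Ier2, and Jund with Klf6. Atf3 had r 0.259 with Egr1 and 0.258 with Jun after thinning (adj. P-value 0.340 in both). With all 42 organoids, Atf3 did not pass with Egr1, Klf6 or Jun (adj. P-values 0.116, 0.130 and 0.0992), whereas it did with Fosl1 (0.0460). Fosl1 fell as total counts rose (r -0.517, permutation P-value 0.00477, adj. P-value 0.0344, rho -0.526, permutation P-value 0.00343), and the part of depth in its spread was not tested.

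**Figure D5:**
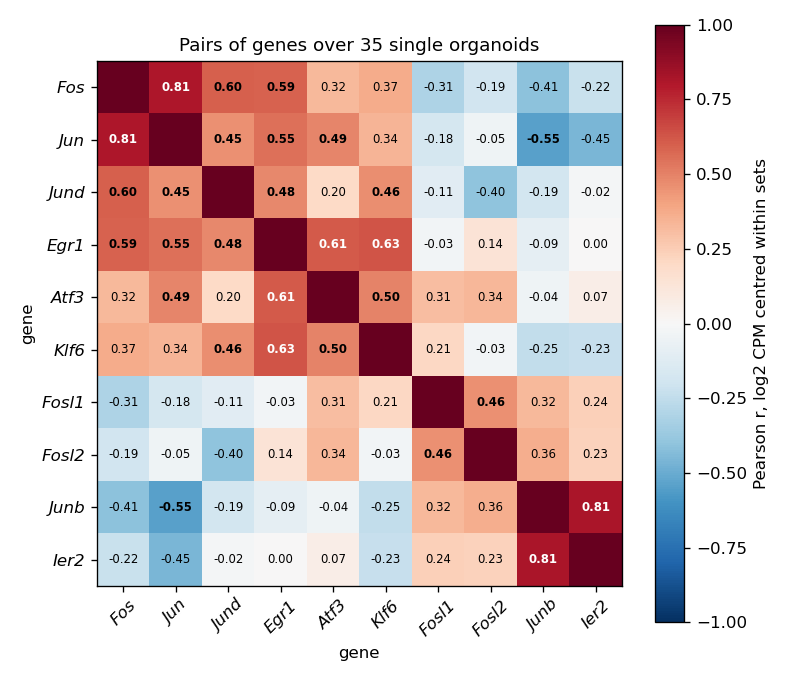
Pearson's r of set-centred log2 CPM for each pair of the 10 genes over 35 single organoids, with bold numbers for adj. P-values below 0.05. Fos, Jun, Jund, Egr1, Atf3 and Klf6 form a block of positive values, not all of which passed, and Junb and Ier2 a pair at 0.81.

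Among 6484 genes of sufficient abundance, those most like Fos over the 35 organoids, by r of set-centred log2 CPM, were Jun (0.811), Rsrp1 (0.798), Atp1b1 (0.774), Ifngr2 (0.773), Zfand5 (0.767), Tmed10 (0.764), Lztfl1 (0.756), Pgap2 (0.753), Klf3 (0.752) and 2210016L21Rik (0.749). The median r of all genes with Fos was -0.00563 and the 99 percentile 0.662, so that Jun was the one other member above it. These values describe libraries that share a preparation. In the ranks from most to least like Fos, Jund stood at 223, Egr1 at 247, Klf6 at 1534, Fosl2 at 3951, Ier2 at 4094, Fosl1 at 4617 and Junb at 5479. Atf3 was not abundant enough to be ranked.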

How the data were processed

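The counts were deposited by the authors as integer genes-by-libraries tables. Total RNA of bulk cultures, or bead-captured mRNA of single organoids, was barcoded with UMIs at reverse transcription, and the submitters' processing notes name STAR, featureCounts, SAMtools 1.9, R 3.6.3, edgeR 3.28.1, limma 3.42.2 and GRCm38. The sources used here do not state whether the counts are UMIs or reads.

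Genes passing filterByExpr (minimum count 3) were normalised by TMM and tested by quasi-likelihood in edgeR 4.0.16 under R 4.3.3. SE were derived from the F statistic. Technical replicates were summed. Correlations used log2 CPM with a prior count of 2 and 100000 permutations, or all orders for 8 organoids. The members are named in every comparison, and from each gene list at most the 3 largest changes among called genes, together with the 10 genes most like Fos. A gene that this rule would name among the AP-1 targets is not reported here. The lists of related genes and the members were chosen with earlier results of these data known. The scripts were tested on simulated data, where a log2 fold-change of 1 was recovered for 25.7% of changed genes between cultures (12548 genes), 45.3% between passages (13407 genes) and 68.6% between Sets 1 and 2 (13683 genes), and 2.73, 6.67 and 1.94% of the calls were false. Far fewer genes were changed there than were called in the data. Between cultures, 101 tested genes were changed by 1 and 96 by 2, against 3776 called. These shares may thus not hold for the data. Alternatives were RLE size factors, library totals without TMM (added after the data were seen), other filters, limma-voom 3.58.1, DESeq2 1.42.0, thinning to the smallest total, a replicate block, all 42 organoids, 1 technical replicate and leaving out single libraries.

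Deviations from the group means correlated, between a dome and a suspension culture of equal number, at 0.153, 0.165 and 0.191. Between passage cultures of 1 set, which come from the same mouse, they did so at 0.110, 0.0282 and 0.108. The main fits held culture condition or passage alone, without pairs. Numbers and sets were taken as pairs only in the replicate block, an alternative. Gene positions are from GENCODE M21.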

Additional observations from a re-analysis of the deposited data

How the results depend on the processing

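Of the 4 members called between cultures, 3 higher and 1 lower, thinning all libraries to the smallest total left 1 higher and 0 lower. The replicate block, the absence of a filter and library totals without TMM each gave 2 lower, since Fos passed the test as well (-0.67, -0.70 and -1.04). Leaving out 1 culture gave 1 to 3 higher and 1 lower. Of the 4 members called lower at passage 11, thinning left 1, and leaving out 1 culture gave 3 to 4 lower and 0 higher. For the single organoids, thinning gave 0 members over the 4 sets and 0 pairs, and all 42 organoids gave 1 member and 2 pairs. Leaving out 1 organoid of Set 3 gave 2 to 3 members, 4 pairs and 0 members lower in Set 1 throughout. In the single organoids the number is only a name (median correlation of residuals 0.0564, -0.366 to 0.414). With it as a replicate block, Klf6 passed in Set 3 minus Set 4 (1.15) and Atf3 in Set 1 minus Set 3 (-1.01), and Atf3 no longer in Set 2 minus Set 4 (0.76). The block changed no other call of a member. With all 42 organoids, 4 relations of Fos passed the threshold, and 5 negative pairs of members. Thinning gave 2 relations of Fos, with Ier2 in Set 2 (r -0.831) in place of Egr1 in Set 4, and 1 negative pair, Jun with Ier2 (-0.503) in place of Jun with Junb. It left 5 positive pairs, and library totals without TMM left 0 negative pairs. The causes of these changes were not tested, beyond the fewer counts that thinning leaves. In the limma-voom fit, both Atf3 calls between sets were lost (adj. P-values 0.0534 and 0.0592), as was Jund in Set 1 minus Set 4 (0.0775), while Fosl1 in Set 2 minus Set 4 (0.87, adj. P-value 0.0415) and Klf6 in Set 3 minus Set 4 (0.90, adj. P-value 0.0459) passed. Jund in Set 1 minus Set 4 was also lost in the absence of a filter (0.54, adj. P-value 0.0528). With library totals without TMM, Junb passed in Set 3 minus Set 4 (0.52, adj. P-value 0.0247). No call of a member changed its direction under any alternative run. Depth limits Atf3 and Fosl1, which both had as few as 3 counts in a technical replicate.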

Other observations

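Pairs of members did not run the same way in each set of single organoids. Fosl2 and Jund had r -0.962 in Set 1 (n = 8), -0.367 in Set 2 (n = 10) and 0.425 in Set 4 (n = 12), and Junb and Klf6 had -0.829, -0.482 and 0.442. Jun and Ier2 had 0.222, -0.661 and -0.748. These pairs were chosen after their values were seen, and the differences between sets were not tested.

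The technical replicates of the passage cultures give the error of the measurement itself. For Junb, the larger of 2 technical replicates exceeded the smaller by 1.01 to 1.10 times over the 6 cultures. For Atf3 the ratio was 1.02 to 1.17 in 5 cultures and 2.65 in Set 4 at passage 11, where the replicates held 3 and 6 counts. Egr1, at 8 to 29 counts per replicate, had ratios of 1.13 to 2.18.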
